A study of Mus musculus with 32 samples.

Results

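The genes described here are 28 genes of cholesterol synthesis and of its control by the transcription factor SREBP2. They were taken by name from a list and found in the counts table by their Entrez identifiers. All 28 were matched among 24885 identifiers, and all 28 passed the filter on low counts that left 11244 genes for testing. By role, 8 act in the mevalonate and isoprenoid segment (Acat2, Hmgcs1, Mvk, Pmvk, Mvd, Idi1, Fdps and Ggps1). The next 12 make squalene (Fdft1) and carry it to cholesterol (Sqle, Lss, Cyp51, Tm7sf2, Lbr, Msmo1, Nsdhl, Hsd17b7, Ebp, Sc5d and Dhcr7). Another 6 form the SREBP2 control machinery (Srebf2, Scap, Insig1, Insig2, Mbtps1 and Mbtps2), and the last 2, Stard4 and Soat1, move cholesterol between membranes and store it as ester.

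Animal cells build cholesterol from acetyl-CoA by way of mevalonate, farnesyl diphosphate, squalene and lanosterol, and the farnesyl branch also feeds protein prenylation. SREBP2, encoded by Srebf2, is held in the endoplasmic reticulum with its escort SCAP. When membrane sterol is low, SCAP carries it to the Golgi, the proteases encoded by Mbtps1 and Mbtps2 release its active domain, and that domain turns on the genes of the pathway. INSIG1 and INSIG2 retain SCAP when sterol is plentiful. Macrophages also gain cholesterol from engulfed lipoproteins and cells, and part of what they do not export is esterified by SOAT1. TREM2 is a lipid-binding receptor of macrophages and microglia, M-CSF is the growth factor that sustains macrophages, and LPS is a bacterial glycolipid that activates them.

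The libraries came from bone marrow-derived macrophages of mice, all labelled as C57BL/6. Wild-type cells were compared with cells of Trem2-/- mice (T2KO in the labels), each in low M-CSF or normal M-CSF, and each without LPS or with LPS at 10 ng/ml for 4 h. The 8 groups held 4 libraries each, 32 in all. The labels give overnight culture in complete RPMI with either 0.5% or 10% LCCM, a term they do not expand, and no label ties these percentages to the words low and normal. Whether replicate libraries stem from different animals or different dishes is not stated, and the p-values therefore measure the spread between these libraries, which may be technical. They do not say either whether the wild-type mice were littermates of the knockouts.

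Total counts ran from 3068863 to 15585423 per library (median 5596111), and a count of 0 allowed at most 3 counts, or 0.163 to 1.46 CPM, counting error only. CPM (counts scaled to library size) includes the factors of TMM, a method that assumes most genes do not differ. Its factors were 1.149 to 1.368 without LPS, 0.9031 to 1.012 with LPS in normal medium, and 0.5979 to 0.7516 with LPS in low medium, so levels with LPS in low medium were scaled up relative to total counts. Library 1 was closest to library 3, and library 2 to library 4, in all 8 groups. In 6 of the 8 groups, both of these pairs were also closer than every other pair of libraries. Every test was therefore repeated with each such pair summed, which leaves n = 2 in a group. Fewer genes pass at that n. For genotype in low medium with LPS, 485 of all genes were called, against 2147 in the main fit. A call lost there need not be particular to the gene. Without LPS the knockout retained 11.9% of wild-type Trem2 reads in normal medium and 25% of them in low M-CSF, and with LPS 2.6% and 1.81%. These are reads of the 3′ end and need not reflect an intact transcript. The 8 macrophage markers together summed to between 4390 and 11200 CPM in every library. In sum, the 6 lymphocyte markers never exceeded 1.28 CPM, the 6 dendritic cell markers 14 CPM and the 7 stromal cell markers 22.2 CPM. The 6 osteoclast markers summed to 1.63 to 61.6 CPM and the 4 monocyte markers to 65.3 to 504 CPM, and both lists moved with the groups, as given beside the results. The stromal and dendritic cell lists moved too. Stromal sums were 0.388-1.76 CPM in wild-type cells in normal medium without LPS and 16.2-22.2 CPM in low medium with LPS. In knockout cells without LPS, dendritic cell sums were 0-0.93 CPM in normal and 5.81-10 CPM in low medium. Their part in the results was not tested. In what follows, group means are given with the SD of 4 libraries, log2 differences with their standard error (SE), and adjusted p-values come from the quasi-likelihood test of edgeR with Benjamini-Hochberg adjustment over 11244 genes, called at 0.05. In RNA from whole cultures, fewer cells of a type and less RNA per cell cannot be told apart.

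The promoters of 4 enzymes that moved in opposite directions with LPS in low medium are shown first, because SREBP2 acts through short motifs near the start site. Hmgcs1 and Idi1 rose most in the knockout, and Mvk and Lss fell. Each sequence is a RefSeq window on GRCm38.p6, 250 bases before to 50 after the start, on the plus strand: chr13:119690101-119690400 for Hmgcs1, chr13:8885356-8885655 for Idi1, chr5:114444019-114444318 for Mvk and chr10:76531355-76531654 for Lss. Capitals mark the sterol regulatory element TCACNCCAC and the NF-Y box CCAAT, which reads ATTGG on the other strand.
Hmgcs1: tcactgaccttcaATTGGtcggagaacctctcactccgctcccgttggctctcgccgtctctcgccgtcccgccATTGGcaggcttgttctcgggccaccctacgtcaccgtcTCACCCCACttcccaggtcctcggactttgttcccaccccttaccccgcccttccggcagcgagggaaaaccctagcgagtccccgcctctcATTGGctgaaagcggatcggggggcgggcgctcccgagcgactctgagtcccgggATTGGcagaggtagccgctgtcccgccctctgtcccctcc
Idi1: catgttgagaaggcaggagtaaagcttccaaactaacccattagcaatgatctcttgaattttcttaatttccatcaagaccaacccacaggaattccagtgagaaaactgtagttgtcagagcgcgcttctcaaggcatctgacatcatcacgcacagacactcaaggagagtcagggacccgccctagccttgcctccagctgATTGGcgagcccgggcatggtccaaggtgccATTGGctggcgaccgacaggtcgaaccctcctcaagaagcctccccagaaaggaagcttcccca
Mvk: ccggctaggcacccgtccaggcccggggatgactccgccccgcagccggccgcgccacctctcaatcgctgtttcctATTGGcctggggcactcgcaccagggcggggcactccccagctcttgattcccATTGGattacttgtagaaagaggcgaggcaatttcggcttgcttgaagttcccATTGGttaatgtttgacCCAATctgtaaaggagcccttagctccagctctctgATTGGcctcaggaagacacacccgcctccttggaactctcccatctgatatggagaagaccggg
Lss: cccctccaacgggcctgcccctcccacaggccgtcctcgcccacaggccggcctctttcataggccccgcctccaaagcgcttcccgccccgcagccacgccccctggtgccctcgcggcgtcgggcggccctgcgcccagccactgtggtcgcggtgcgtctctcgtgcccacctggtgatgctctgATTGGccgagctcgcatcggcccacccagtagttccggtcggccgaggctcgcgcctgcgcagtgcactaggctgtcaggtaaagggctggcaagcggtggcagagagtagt

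The window of Hmgcs1, which makes HMG-CoA, held the sterol regulatory element TCACNCCAC at position -137 from the start and 4 NF-Y boxes. Idi1, the isopentenyl diphosphate isomerase, had 2 NF-Y boxes, Mvk, mevalonate kinase, had 5, and Lss, lanosterol synthase, had 1. Windows were found for 24 of the 28 genes. Fdps, Fdft1, Sqle and Stard4 were the others. Some genes have more than 1 window, 30 in all. The exact motif TCACNCCAC, read on both strands, was in 1 of the 30 windows, against 1.24% of 32851 RefSeq windows of the same length. CCAAT was in 20 of the 30, against 37.4% of all windows, and the GC box GGGCGG in 24 of the 30, against 35.7%. TCACNTGA, an E-box-like SREBP element, was in 1 window, of Insig2, against 4.18%. The searched motifs can share bases with others, and a match describes letters only.

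**Figure D1:**
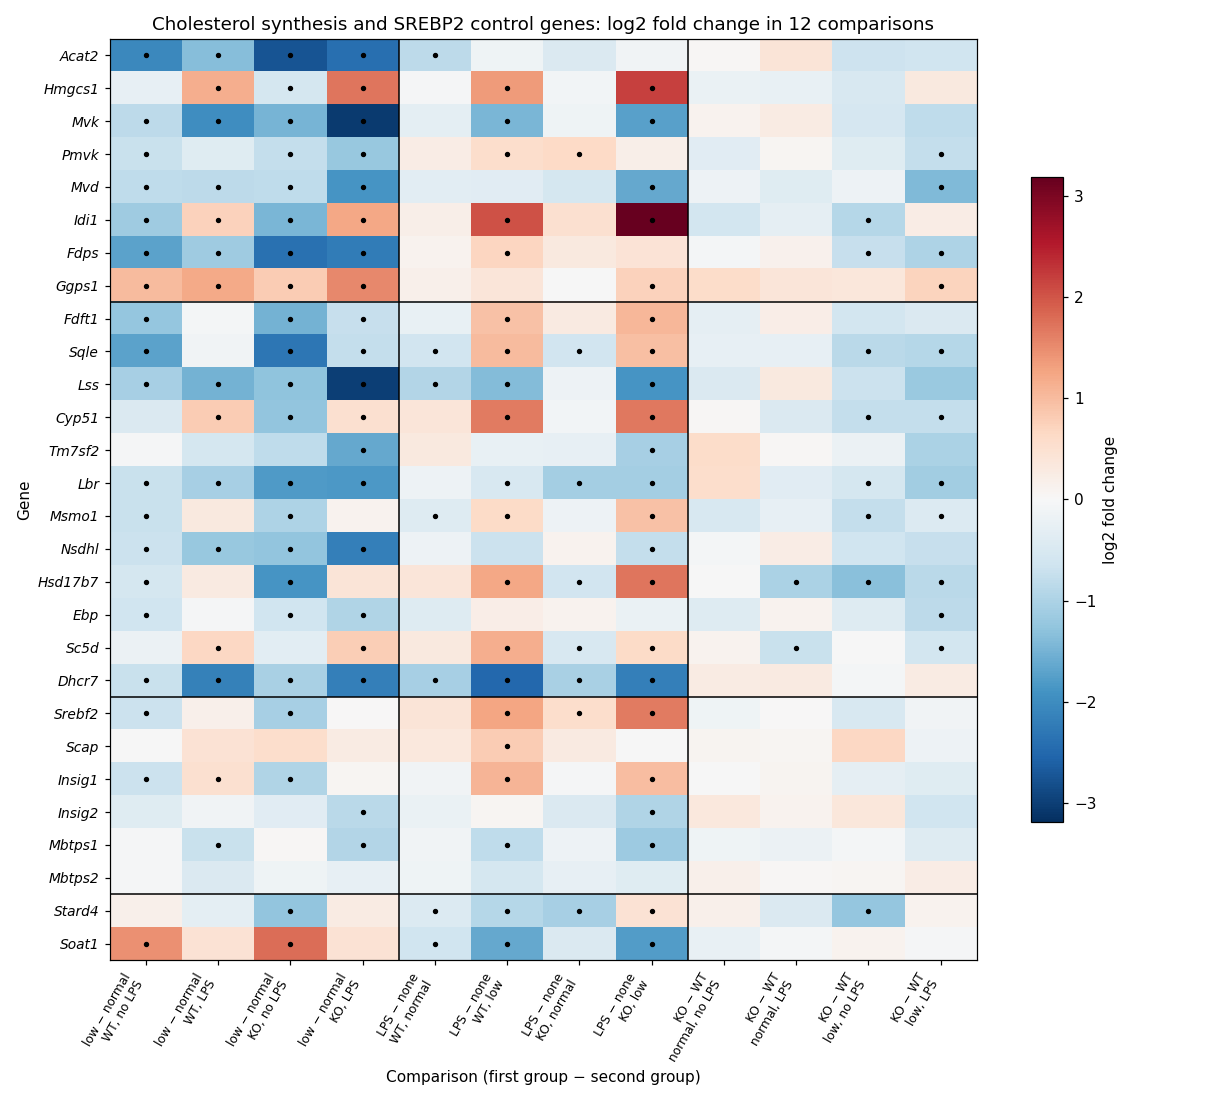
Log2 fold change of each of the 28 genes (rows, in pathway order) in the 12 comparisons of paired groups (columns); blue is lower and red higher in the first group, and a dot marks an adjusted p under 0.05. Low medium without LPS lowered 17 genes in wild-type and 20 in knockout cells, and the columns for LPS in low medium hold 13 higher and 7 lower genes in wild-type and 12 higher and 10 lower in knockout cells.

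Low medium without LPS lowered most of the pathway in both genotypes. In wild-type cells 17 of the 28 genes fell and 2 rose, where 21.9% of all genes tested fell and 22.4% rose. In knockout cells 20 fell and 2 rose, where 21.7% of all genes fell and 26.6% rose. The median log2 difference of the 28 was -0.69 in wild-type cells (0.01 over all genes) and -1.0 in knockout cells (0.10 over all genes). The 20 enzymes accounted for 15 of the falls in wild-type cells, 6 of 8 in the mevalonate segment and 9 of 12 after it, and for 17 in knockout cells, 7 of 8 and 10 of 12. All 17 genes that fell in wild-type cells also fell in knockout cells: Acat2, Mvk, Pmvk, Mvd, Idi1, Fdps, Fdft1, Sqle, Lss, Msmo1, Nsdhl, Hsd17b7, Ebp, Dhcr7, Lbr, Insig1 and Srebf2.

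Summed over the 20 enzymes, the level was 1050 ± 16.7 CPM in wild-type cells in normal medium, against 629 ± 61.2 CPM in low medium, with ranges of 1030 to 1070 and 559 to 686. In knockout cells the sum was 945 ± 38.9 CPM in normal medium (914 to 995) and 447 ± 29 CPM in low medium (410 to 476). The groups did not overlap in either genotype. The 14 proliferation markers moved with the enzymes. All 14 fell in both genotypes, with median log2 differences of -1.73 in wild-type and -3.20 in knockout cells, and their summed level went from 3060-3750 to 965-1860 CPM and from 2600-3390 to 250-428 CPM. Of 9 neutrophil markers, 3 rose in wild-type and 7 in knockout cells, from sums of 57.1-69.8 to 132-145 CPM and from 58.2-66.8 to 241-308 CPM. All 4 monocyte markers were called in both genotypes, 1 higher (Ccr2, by 2.33 ± 0.18) and 3 lower in wild-type and 2 and 2 in knockout cells. Their sums went from 100-148 to 427-504 CPM and from 83-98.8 to 137-173 CPM. Of 8 macrophage markers 5 rose and 1 fell in wild-type and 4 rose and 1 fell in knockout cells, with sums from 4430-5020 to 7630-8940 CPM and from 4390-5370 to 7730-9880 CPM. The part of these markers in the result was not tested.

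Acat2, the cytosolic thiolase that opens the pathway, fell furthest. It stood at 35.2, 25.3, 24.9 and 27.9 CPM in the 4 wild-type libraries in normal medium and at 6.12, 9.22, 4.38 and 7.39 CPM in low medium. In knockout libraries it stood at 24.9, 31.3, 24.4 and 35.7 CPM in normal and at 2.74, 2.47, 7.34 and 4.51 CPM in low medium. Every low-medium library lay below every normal-medium one, and the log2 differences were -2.06 ± 0.26 (adjusted p = 7.92e-08) and -2.75 ± 0.27 (adjusted p = 1.02e-10), that is 4.16-fold and 6.71-fold lower.

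Fdps makes farnesyl diphosphate, the branch point to squalene and to prenylated proteins. Its wild-type libraries read 122, 105, 115 and 109 CPM in normal medium and 35.6, 30, 37.5 and 35.8 CPM in low medium. Its knockout libraries read 89.3, 120, 104 and 123 CPM in normal and 22.2, 15.9, 26.4 and 19.1 CPM in low medium. The low-medium libraries were again all below the others, by -1.70 ± 0.20 in wild-type (adjusted p = 7.86e-09) and -2.39 ± 0.20 in knockout cells (adjusted p = 2.03e-12). Sqle, squalene epoxidase and one of the slow steps of the pathway, behaved alike. It read 99.2, 75.2, 75.7 and 67.2 CPM in wild-type cells in normal medium against 23.6, 22.3, 28.2 and 22.8 CPM in low medium. Knockout cells gave 63.6, 67.2, 57.3 and 74.4 CPM against 11.4, 12.6, 15.7 and 13.5 CPM. The groups did not overlap, and the log2 differences were -1.71 ± 0.18 (adjusted p = 7.35e-10) and -2.30 ± 0.18 (adjusted p = 3.85e-13).

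Idi1, Fdft1 and Msmo1 were among the other enzymes that fell. Idi1 went from 78.5 ± 4.01 to 35.8 ± 4.76 CPM in wild-type and from 52 ± 8.07 to 18.8 ± 3.39 CPM in knockout cells. Fdft1, squalene synthase, went from 28.6 ± 7.86 to 12.3 ± 3.19 CPM and from 23.5 ± 3.98 to 8.13 ± 0.626 CPM. Msmo1, the methyl sterol oxidase, went from 173 ± 9.37 to 105 ± 23.8 CPM and from 121 ± 8 to 61.5 ± 11.2 CPM. These 3 also passed with the library pairs summed. Hmgcs1, Cyp51 and Stard4 were called lower in knockout cells, by -0.56, -1.27 and -1.26, and not in wild-type cells, where the differences were -0.25 ± 0.21, -0.47 ± 0.20 and 0.15 ± 0.16. Of these 3, only Stard4 had a medium effect that differed between genotypes by the interaction test given further on.

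A pair of genes went the other way in both genotypes. Soat1, which esterifies cholesterol for storage, rose from 188, 351, 261 and 324 CPM to 715, 900, 632 and 814 CPM in wild-type libraries and from 255, 248, 234 and 218 CPM to 673, 989, 668 and 940 CPM in knockout libraries. No libraries overlapped, and the log2 differences were 1.45 ± 0.22 (adjusted p = 1.43e-06) and 1.78 ± 0.22 (adjusted p = 2.12e-08). Ggps1, which makes geranylgeranyl diphosphate for protein prenylation and so leads away from sterol, rose by 1.0 ± 0.24 and 0.80 ± 0.24. In wild-type cells 9 of the 19 calls were kept with the library pairs summed: the 2 that rose, and Acat2, Idi1, Fdps, Fdft1, Sqle, Lss and Msmo1. In knockout cells 17 of 22 were kept. Leaving out 1 library in turn ended the wild-type calls of Mvd, Nsdhl and Dhcr7 when any 1 of 5 libraries was missing for each, Hsd17b7 with any 1 of 4, Ebp with any 1 of 3 and Insig1 without normal-medium library 1 (adjusted p 0.0509 to 0.175 over these). In knockout cells it ended those of Hmgcs1 and Mvd with any 1 of 6 libraries and Ebp with any 1 of 4 (0.0508 to 0.161).

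**Figure D2:**
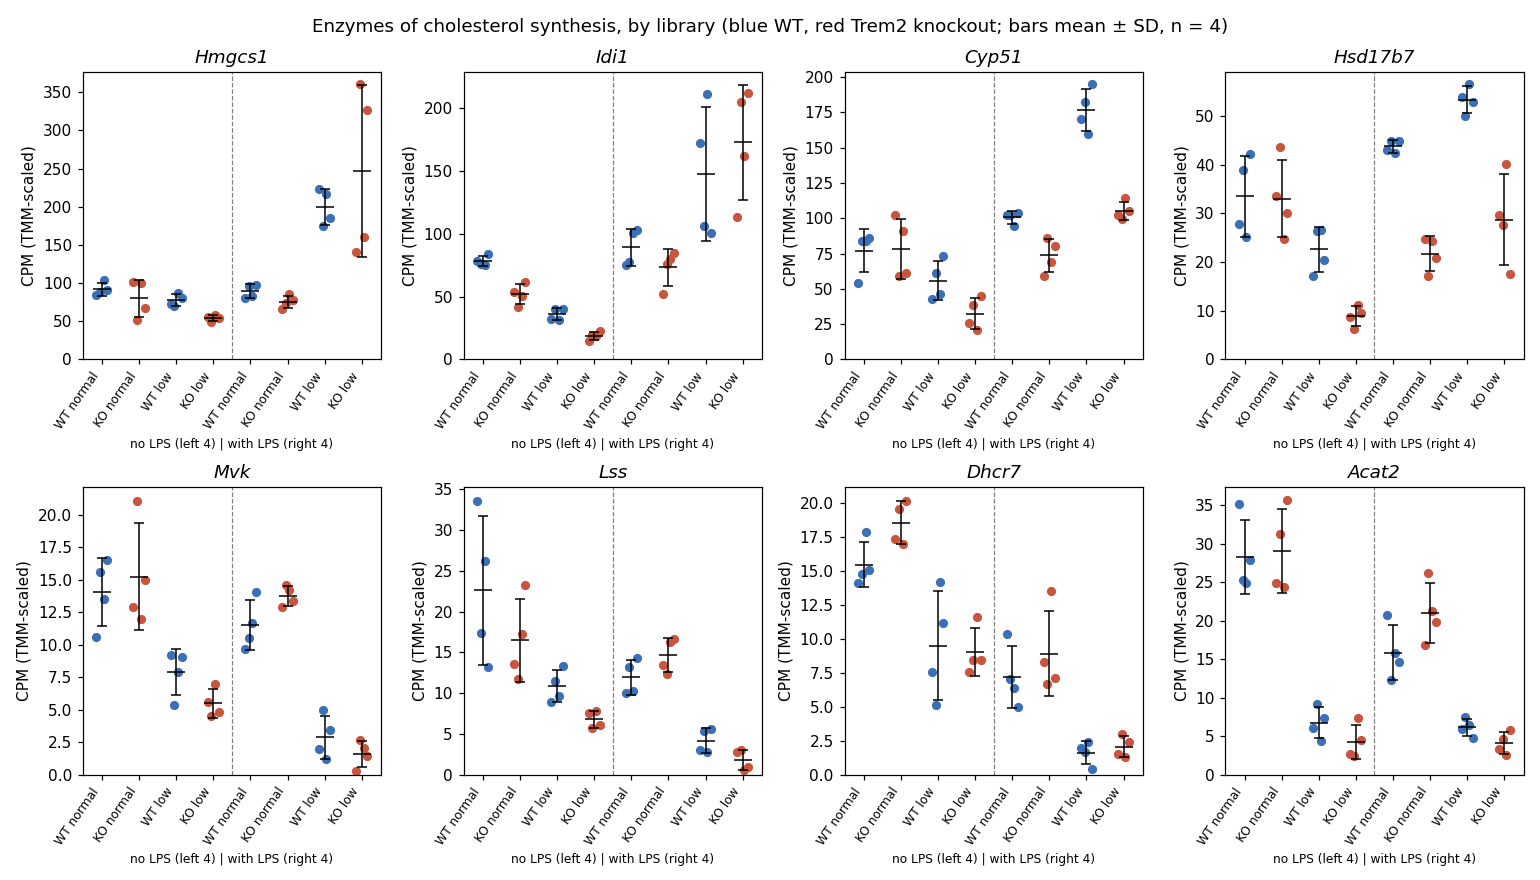
Level of 8 enzymes in each library (TMM-scaled CPM, axis from 0), with points for libraries and bars for mean ± SD of 4; groups without LPS are left of the dashed line and groups with LPS right of it. Hmgcs1, Idi1 and Cyp51 are highest with LPS in low medium, where Mvk, Lss and Dhcr7 are lowest.

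LPS changed few of these genes when M-CSF was normal. In wild-type cells 7 fell and 0 rose, where 17.9% of all genes fell and 18.3% rose. In knockout cells 6 fell and 2 rose, where 21.8% fell and 20.9% rose. The median log2 difference was -0.15 in both genotypes, against -0.04 and -0.05 over all genes. The summed enzyme level was 978 ± 46 CPM in wild-type and 866 ± 39.8 CPM in knockout cells with LPS.

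Dhcr7, the reductase of the final step to cholesterol, fell in both genotypes. Its wild-type libraries read 14.1, 14.8, 17.9 and 15.1 CPM without LPS and 10.4, 7.07, 6.39 and 4.95 CPM with it. Its knockout libraries read 17.4, 19.6, 17 and 20.2 CPM without LPS and 8.3, 6.67, 13.5 and 7.14 CPM with it. The groups did not overlap, and the log2 differences were -1.07 ± 0.27 (adjusted p = 0.00187) and -1.03 ± 0.27 (adjusted p = 0.00235). Sqle fell by -0.61 ± 0.17 and -0.60 ± 0.17, and Stard4, which carries cholesterol between membranes, by -0.43 ± 0.16 and -1.07 ± 0.17. Those were the 3 genes called lower in both genotypes.

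Some calls appeared in a single genotype. In wild-type cells Acat2 fell from its normal-medium values above to 20.8, 12.3, 15.8 and 14.6 CPM, a log2 difference of -0.83 ± 0.25. Lss fell from 33.6, 17.4, 26.2 and 13.2 CPM to 9.96, 13.2, 10.3 and 14.3 CPM, with overlapping libraries and a log2 difference of -0.93 ± 0.27. Soat1 fell to 155, 215, 166 and 184 CPM (-0.64 ± 0.22) and Msmo1 from 173 ± 9.37 to 130 ± 4.44 CPM (-0.41 ± 0.15).

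In knockout cells Lbr, a sterol reductase that also anchors chromatin to the nuclear envelope, fell from 87.4, 65.7, 93.7 and 63.7 CPM to 36.9, 33.9, 39 and 37.5 CPM. No libraries overlapped and the log2 difference was -1.08 ± 0.19 (adjusted p = 9.27e-06). Hsd17b7, a keto-sterol reductase, fell by -0.60 ± 0.21 and Sc5d, a sterol desaturase, by -0.51 ± 0.17. Pmvk, phosphomevalonate kinase, rose from 11.9, 12.3, 11.7 and 16.3 CPM to 22.7, 20.5, 21.4 and 15.9 CPM, a difference of 0.63 ± 0.22 with 1 overlapping library in each group. Srebf2 rose by 0.56 ± 0.20.

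None of these responses differed between genotypes past the threshold. The interaction of genotype with LPS in normal medium called 0 of the 28 with edgeR, where 0.534% of all genes passed. At an unadjusted p under 0.05 there were 5, and DESeq2 called 2, Sc5d and Lbr. The calls depended on the scaling. With library sizes from total counts alone, 15 genes fell in wild-type and 19 in knockout cells and 0 rose. The median of all genes moved to -0.47 and -0.58. Of all 11244 genes 5713 were called there in wild-type and 6652 in knockout cells, and 21.5% and 19.5% of those calls were higher. These percentages are of calls, not of all genes tested. With the library pairs summed, Lss and Dhcr7 kept their calls in wild-type and Dhcr7, Stard4 and Lbr in knockout cells. Leaving out any 1 of 5 libraries ended the wild-type call of Msmo1, any 1 of 4 that of Stard4 and any 1 of 2 that of Soat1, and in knockout cells any 1 of 5 ended that of Pmvk, any 1 of 3 that of Srebf2, any 1 of 2 that of Hsd17b7 and 1 that of Sc5d. In wild-type cells 8 of 14 proliferation markers fell with LPS and 5 of 9 neutrophil markers rose, and in knockout cells 5 and 6 did. Of 4 monocyte markers 1 rose and 1 fell in wild-type and 2 rose and 1 fell in knockout cells, and of 8 macrophage markers 4 rose and 1 fell, and 3 rose and 0 fell. Their part in the result was not tested.

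With LPS in low medium, genes of the pathway were called in both directions. In wild-type cells 13 of the 28 rose and 7 fell, where 27% of all genes rose and 33.6% fell. In knockout cells 12 rose and 10 fell, where 26.5% rose and 41% fell. The share of the 28 that rose was thus above that of all genes in both genotypes, and the share that fell was below it. Of the 20 enzymes, 10 rose and 4 fell in wild-type cells and 9 rose and 7 fell in knockout cells. Total-count scaling moved the median of all genes from -0.18 to -0.94 and from -0.36 to -1.30. Under it the 28 genes split into 5 higher and 14 lower in wild-type and 5 higher and 17 lower in knockout cells. Of all 11244 genes 8344 were called there in wild-type and 9330 in knockout cells, and 19% and 17% of those calls were higher. These percentages are of calls, unlike those under TMM above, which are of all genes tested. Under the TMM scaling 10 genes rose in both genotypes: Hmgcs1, Idi1, Fdft1, Sqle, Cyp51, Msmo1, Hsd17b7, Sc5d, Insig1 and Srebf2. All 10 were kept with the library pairs summed, and Hmgcs1, Idi1, Cyp51 and Hsd17b7 were higher in both genotypes under both scalings. Under TMM, 6 fell in both genotypes, Mvk, Lss, Dhcr7, Lbr, Soat1 and Mbtps1, and all 6 also fell in both under total counts.

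Idi1 rose most. It read 32.3, 39.8, 31.1 and 40 CPM in wild-type cells without LPS and 172, 106, 211 and 101 CPM with LPS. Knockout libraries read 14.4, 19.3, 18.7 and 22.7 CPM without LPS and 113, 205, 162 and 212 CPM with it. The groups were far apart, at log2 differences of 2.04 ± 0.22 (adjusted p = 2.28e-10) and 3.19 ± 0.22 (adjusted p = 3.69e-15), which were 1.27 and 2.26 under total counts. Hmgcs1 rose from 72.9, 69.5, 87.3 and 80.2 CPM to 223, 175, 216 and 185 CPM in wild-type libraries. In knockout libraries it rose from 55.9, 49.3, 57.6 and 54.6 CPM to 141, 361, 160 and 326 CPM. The knockout libraries with LPS fell into a lower pair, libraries 1 and 3, and a higher pair, libraries 2 and 4, and all lay above those without LPS. The log2 differences were 1.37 ± 0.22 and 2.18 ± 0.22 (adjusted p = 1.2e-06 and 6.58e-11), or 0.60 and 1.25 under total counts.

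Cyp51, the lanosterol demethylase, read 42.6, 61.2, 46.6 and 73 CPM in wild-type cells without LPS and 170, 182, 160 and 195 CPM with it. Its knockout libraries read 25.5, 38.6, 21 and 44.6 CPM without LPS and 102, 99.6, 114 and 105 CPM with it. All libraries with LPS lay higher, by 1.66 ± 0.21 and 1.69 ± 0.21 (adjusted p = 1.38e-08 and 8.9e-09), or 0.91 and 0.75 under total counts. Hsd17b7 rose from 17.1, 26.3, 26.6 and 20.5 to 54, 50, 56.6 and 53 CPM in wild-type libraries and from 8.81, 6.18, 11.2 and 9.5 to 29.6, 27.7, 40.2 and 17.5 CPM in knockout libraries. Its log2 differences of 1.24 ± 0.22 and 1.71 ± 0.23 were 0.48 and 0.75 under total counts. Sqle (1.0 and 0.95 under TMM) stood at 0.23 and 0.00 under total counts and lost its calls, as did Fdft1 (0.94 and 1.06, against 0.18 and 0.12).

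Of the genes that fell, Dhcr7, Lss and Mvk stood at low counts. Dhcr7 read 7.53, 5.12, 14.2 and 11.2 CPM in wild-type cells without LPS and 1.99, 1.65, 2.42 and 0.428 CPM with it. In knockout cells it read 7.6, 8.43, 11.6 and 8.42 CPM and then 1.54, 3, 1.28 and 2.43 CPM. Libraries did not overlap, and the log2 differences were -2.51 ± 0.39 (adjusted p = 1.1e-06) and -2.17 ± 0.37 (adjusted p = 2.95e-06). Lss went from 8.93, 11.5, 9.63 and 13.3 to 2.98, 5.37, 2.83 and 5.56 CPM in wild-type libraries, by -1.38 ± 0.34. In knockout libraries it went from 7.6, 5.67, 7.8 and 6.03 to 2.78, 3, 0.512 and 0.971 CPM, by -1.88 ± 0.39. Mvk went from 9.19, 5.38, 7.88 and 9.06 to 1.99, 4.96, 1.21 and 3.42 CPM and from 5.62, 4.5, 6.97 and 4.83 to 0.309, 2.67, 2.05 and 1.46 CPM. Its differences were -1.46 ± 0.35 and -1.73 ± 0.37, again without overlap. The enzymes that fell thus include early, middle and last steps.

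Soat1 fell as well, from the values given above for low medium to 358, 170, 309 and 142 CPM in wild-type and 246, 307, 199 and 209 CPM in knockout libraries. No libraries overlapped, and the log2 differences were -1.64 ± 0.22 (adjusted p = 5.18e-08) and -1.77 ± 0.22 (adjusted p = 9.83e-09). Mvd, which decarboxylates mevalonate diphosphate, fell in knockout cells from 8.51, 7.41, 13.3 and 6.3 to 2.16, 3.33, 4.87 and 0 CPM, by -1.63 ± 0.40. The summed enzyme level with LPS in low medium was 1190 ± 76.6 CPM in wild-type cells (1110 to 1280) and 989 ± 107 CPM in knockout cells (857 to 1100). The most abundant enzymes weigh most in this sum. It also depends on the TMM factors, 0.5979 to 0.7516 here against 0.9031 to 1.012 with LPS in normal medium. These raise it relative to the sum in normal medium, and it was not taken under total counts. In wild-type cells the calls of Pmvk, Fdps and Lbr were lost with the pairs summed. Leaving out low-medium LPS library 2 alone also ended that of Fdps (0.44, adjusted p = 0.058), any 1 of 5 libraries that of Pmvk and any 1 of 3 that of Lbr. In knockout cells any 1 of 4 libraries ended the call of Nsdhl, any 1 of 3 that of Tm7sf2 and any 1 of 2 that of Ggps1. Of the 14 proliferation markers 11 fell and 0 rose in wild-type cells, and 8 fell and 5 rose in knockout cells. Of 9 neutrophil markers 5 and 3 rose. Of 4 monocyte markers 3 rose and 1 fell in each genotype, while their sums went from 427-504 to 77.3-118 CPM in wild-type and from 137-173 to 65.3-82.5 CPM in knockout cells. Osteoclast markers, of which 1 of 3 tested rose in each genotype, went from sums of 6.27-10.8 to 33.5-61.6 CPM and from 1.63-4.04 to 12-27.7 CPM. Of 8 macrophage markers 3 rose and 1 fell in wild-type and 4 rose and 3 fell in knockout cells. The part of these markers was not tested.

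**Figure D3:**
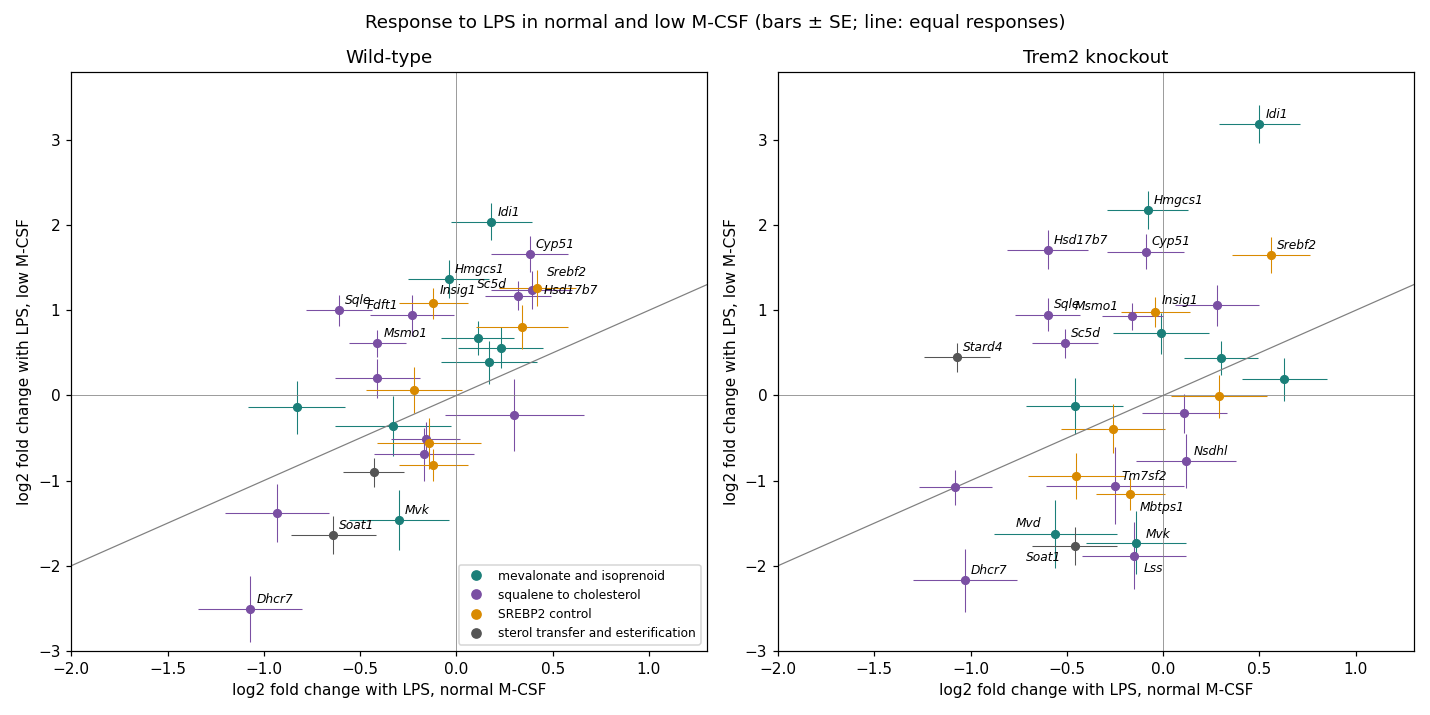
Each point is 1 of the 28 genes, with its log2 fold change with LPS in normal M-CSF (horizontal) and in low M-CSF (vertical), bars ± SE; the diagonal marks equal responses, and genes whose responses differ by 0.8 or more are named. Idi1 lies at 0.18 and 2.04 in wild-type cells and at 0.50 and 3.19 in knockout cells, above the diagonal, while Dhcr7, Mvk and Soat1 lie below it in both panels.

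The response to LPS depended on the medium for many of these genes. The interaction of medium with LPS called 10 of the 28 higher and 3 lower in wild-type cells, where 10.7% of all genes were higher and 12.8% lower. In knockout cells it called 10 higher and 4 lower, against 13.3% and 22% of all genes. A total of 9 genes were called higher in both genotypes: Hmgcs1, Idi1, Sqle, Cyp51, Msmo1, Hsd17b7, Sc5d, Insig1 and Srebf2. Mvk and Soat1 were called lower in both. For Idi1 the LPS response in low medium exceeded that in normal medium by 1.86 ± 0.30 in wild-type (adjusted p = 1.5e-05) and 2.69 ± 0.30 in knockout cells (adjusted p = 1.8e-08). For Sqle, which fell with LPS in normal medium and rose in low medium, the difference was 1.61 ± 0.25 and 1.55 ± 0.25, and for Hmgcs1 it was 1.41 ± 0.30 and 2.26 ± 0.30. Under total counts these interactions were 1.51 and 2.29 for Idi1, 1.28 and 1.13 for Sqle, and 1.07 and 1.84 for Hmgcs1, all still called. Cyp51 and Msmo1 also kept their calls in both genotypes there, while Hsd17b7, Sc5d, Insig1 and Srebf2 lost theirs in at least 1 genotype. With the library pairs summed, 3 wild-type calls (Idi1, Sqle and Insig1) and 8 knockout calls were kept. Leaving out any 1 of 10 libraries ended the wild-type calls of Mvk and Hsd17b7, any 1 of 7 that of Srebf2 and any 1 of 4 that of Dhcr7.

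With LPS present in both media, calls for the low medium went in both directions. In wild-type cells low medium had 6 genes higher and 9 lower, where 21.4% and 24.2% of all genes were. In knockout cells 5 were higher and 15 lower, where 26.5% and 32.8% of all genes were. Hmgcs1, Idi1, Ggps1, Cyp51 and Sc5d were higher in both genotypes. Under total counts Hmgcs1 and Ggps1 remained higher in both, Idi1 in knockout cells only, and Cyp51 and Sc5d in neither. Mvk, Lss, Dhcr7, Acat2, Fdps, Mvd, Nsdhl, Lbr and Mbtps1 were lower in both genotypes, and all 9 stayed so under total counts. Leaving out any 1 of 6 libraries ended the wild-type call of Mvd, any 1 of 2 that of Insig1 and 1 that of Idi1. In knockout cells any 1 of 3 ended that of Cyp51 and 1 that of Insig2. With the library pairs summed Cyp51 lost its call in both genotypes, Insig1, Mvd and Mbtps1 in wild-type and Insig2 in knockout cells.

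Among cells with LPS, the largest falls from normal to low medium were those of Mvk, Lss, Acat2, Fdps and Dhcr7. Mvk read 9.7, 10.5, 11.7 and 14.1 CPM in wild-type and 12.9, 14.6, 14.2 and 13.4 CPM in knockout libraries in normal medium, all above the low-medium values given above. Its log2 differences were -1.99 ± 0.34 (adjusted p = 1.21e-05) and -3.06 ± 0.36 (adjusted p = 6.34e-09). Lss, at 13.5, 12.4, 16.3 and 16.6 CPM in knockout cells in normal medium, was lower in low medium by -1.52 ± 0.34 in wild-type and -3.01 ± 0.38 in knockout cells. Acat2 read 5.96, 7.44, 6.46 and 4.71 CPM in wild-type cells in low medium. Knockout libraries had 16.8, 26.2, 21.3 and 19.9 CPM in normal and 3.4, 4.67, 2.56 and 5.83 CPM in low medium. Its differences were -1.37 ± 0.30 and -2.41 ± 0.32. Those of Dhcr7 were -2.15 ± 0.40 and -2.17 ± 0.37.

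Fdps read 138, 96.9, 132 and 120 CPM in wild-type cells in normal medium with LPS and 36.8, 79.8, 41.2 and 65.9 CPM in low medium. Knockout libraries gave 132, 128, 152 and 124 CPM and 19.5, 33.3, 29.4 and 31.1 CPM. The low-medium libraries lay lower by -1.13 ± 0.20 and -2.24 ± 0.21. This was the single gene whose medium effect with LPS differed between genotypes, by -1.12 ± 0.28 (adjusted p = 0.0157), where 5.49% of all genes passed. That call was lost without wild-type low-medium library 2 (-0.88, adjusted p = 0.0574) and without knockout low-medium library 1 (-0.95, adjusted p = 0.0542). It was also lost with the pairs summed. There 1 of all genes passed this interaction, against 617 in the main fit, so the summed fit could hardly keep any call. Tm7sf2, a second sterol reductase, was called lower in low medium in knockout cells, by -1.62 ± 0.45 (1.83 ± 1.55 against 5.91 ± 0.717 CPM), and by -0.57 ± 0.42 in wild-type cells, where it was not called, and the difference between genotypes was not called either. Of 14 proliferation markers 13 were lower in low medium with LPS in each genotype. Of 9 neutrophil markers 5 were higher in wild-type and 6 in knockout cells, with sums from 125-140 to 250-303 CPM and from 107-166 to 443-615 CPM. Of 8 macrophage markers 6 were higher in each genotype and 1 lower in knockout cells, of 3 osteoclast markers tested 1 was higher in each, and of 4 monocyte markers 1 was higher and 1 lower in wild-type and 1 lower in knockout cells. The part of these markers was not tested.

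In normal medium few of these genes were called between genotypes. Without LPS 0 of the 28 were called with edgeR, where 1.86% of all genes were. At an unadjusted p under 0.05 there were 4, and DESeq2 called 2, Msmo1 lower (-0.52) and Lbr higher (0.55). Log2 differences ran from -0.59 to 0.59, with SEs from 0.15 to 0.35. The libraries of the 2 genotypes did not overlap for 5 genes, 2 higher and 3 lower in the knockout, where 3.99% and 4.59% of all genes separated in this way. Among them Idi1 read 75.1 to 84.1 CPM in wild-type and 41.9 to 61.4 CPM in knockout libraries (-0.59 ± 0.21, adjusted p = 0.162), Msmo1 163 to 185 against 110 to 128 CPM (-0.51 ± 0.15, adjusted p = 0.0858) and Lbr 46.7 to 59.5 against 63.7 to 93.7 CPM (0.56 ± 0.18, adjusted p = 0.122). With LPS in normal medium 2 genes were lower in the knockout and 0 higher, where 2.05% and 1.98% of all genes were. Hsd17b7 read 43, 45, 42.4 and 45 CPM in wild-type and 24.7, 17.1, 24.4 and 20.8 CPM in knockout libraries, without overlap (-1.01 ± 0.21, adjusted p = 0.00353). Sc5d read 59.1, 98.9, 76.3 and 101 CPM against 51.1, 52.2, 44 and 55.1 CPM, also without overlap (-0.72 ± 0.17, adjusted p = 0.00879). With these, 8 genes did not overlap, 1 higher and 7 lower in the knockout, where 7.52% and 6.73% of all genes did not. Stard4 was one of them, at 42.4 to 49.3 against 30.7 to 34.4 CPM (-0.47 ± 0.17, adjusted p = 0.107). Neither Hsd17b7 nor Sc5d was called with the library pairs summed, where 43 of all genes were called, against 454 in the main fit. The Sc5d call was also lost without wild-type library 2 or library 4 (adjusted p = 0.0543 and 0.0542).

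**Figure D4:**
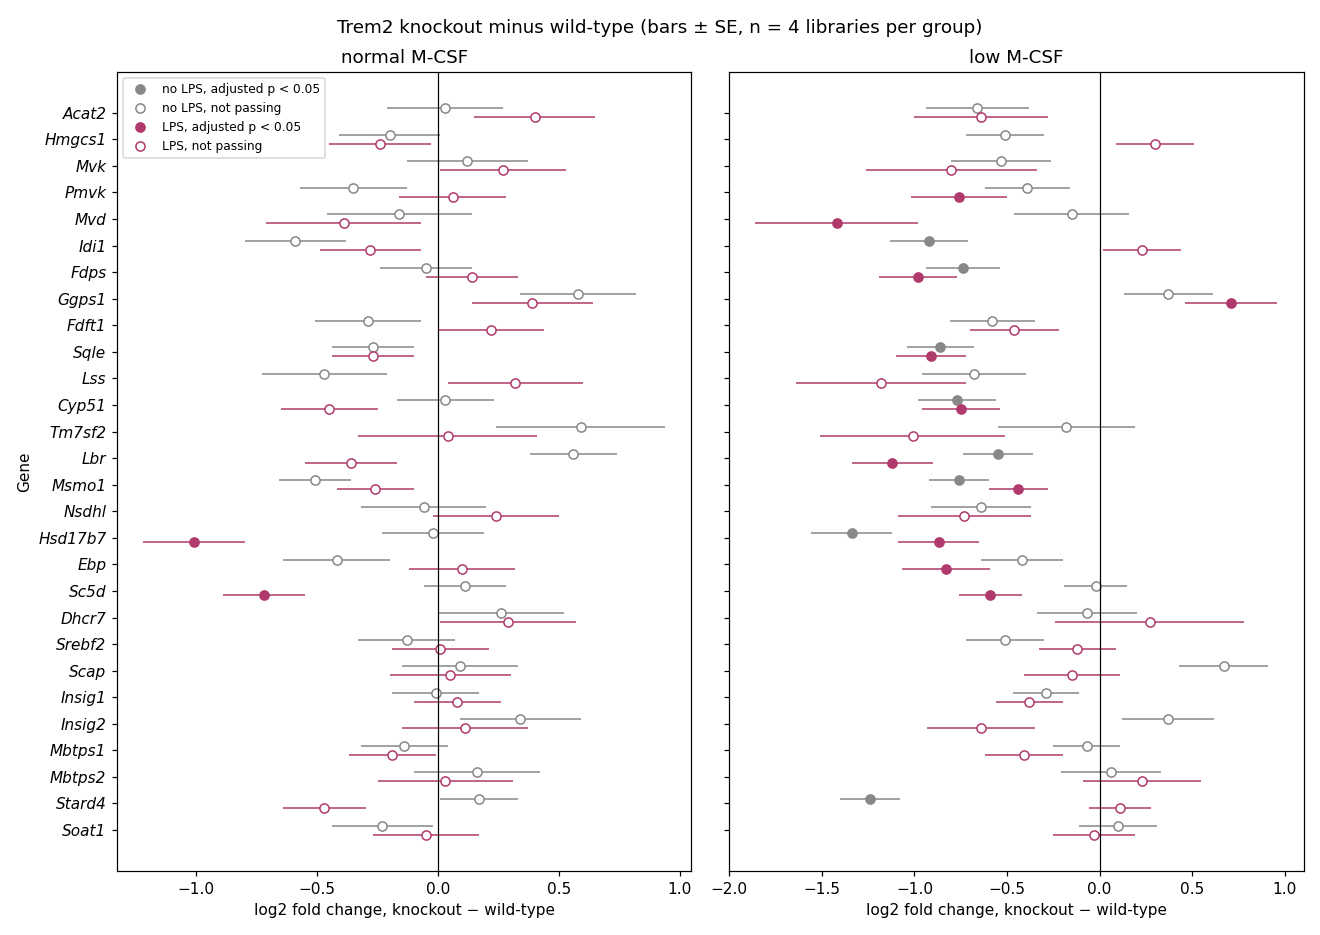
Log2 difference between Trem2 knockout and wild-type cells for each of the 28 genes, in normal M-CSF (left panel) and low M-CSF (right panel), grey without LPS and magenta with LPS; bars are ± SE with 4 libraries in each group, and filled points have an adjusted p under 0.05. Filled points number 0 and 2 in the left panel and 8 and 11 in the right panel, and all but Ggps1 with LPS lie below 0.

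In low medium more genes were lower in the knockout. Without LPS 8 of the 28 were lower and 0 higher, where 8.97% of all genes were lower and 7.74% higher. The median log2 difference was -0.51, against 0.07 over all genes. With LPS 10 were lower and 1 higher, where 10.9% and 8.2% were, and the median was -0.61 against -0.05. Fdps, Sqle, Cyp51, Msmo1, Hsd17b7 and Lbr were called lower in both conditions. All of the 8 without LPS other than Stard4 were enzymes, 2 of the mevalonate segment and 5 of the squalene segment. None of the 6 SREBP2 control genes was called in either condition with edgeR, while DESeq2 called Srebf2 lower (-0.56) and Scap higher (0.63) without LPS.

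Without LPS, Hsd17b7 was furthest apart, with the low-medium values given above and no overlap (-1.34 ± 0.22, adjusted p = 1.96e-05). Stard4 read 64.8, 73.9, 64.4 and 70.7 CPM in wild-type and 26.3, 30.4, 27.5 and 31.5 CPM in knockout libraries. Every knockout library lay below every wild-type one, at -1.24 ± 0.16 (adjusted p = 3.98e-07) or 2.36-fold lower. Idi1 differed by -0.92 ± 0.21 and Sqle by -0.86 ± 0.18, both without overlap. Smaller calls were Cyp51 (-0.77), Msmo1 (-0.76), Fdps (-0.74) and Lbr (-0.55). The Lbr call was lost when any of 6 libraries was left out (adjusted p up to 0.126). Sqle, Hsd17b7 and Stard4 kept their calls with the library pairs summed, and DESeq2 called 13 of the 28.

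With LPS, Mvd differed most, at 7.95, 8.68, 2.42 and 11.6 CPM in wild-type and 2.16, 3.33, 4.87 and 0 CPM in knockout libraries. The groups overlapped, and the difference of -1.42 ± 0.44 (adjusted p = 0.019) was lost without wild-type library 4 (-1.16) or knockout library 1 (-1.30). Lbr read 20.5, 26.5, 13.3 and 30.8 CPM against 11.7, 8.66, 12 and 8.74 CPM, without overlap (-1.12 ± 0.22, adjusted p = 0.000486). Fdps was lower by -0.98 ± 0.21. Sqle, at 52, 62.4, 44.4 and 35.1 CPM against 27.5, 29.7, 28.4 and 16.5 CPM, was lower by -0.91 ± 0.19 and did not overlap. Hsd17b7, Ebp, Pmvk, Cyp51, Sc5d and Msmo1 completed the list with differences of -0.87, -0.83, -0.76, -0.75, -0.59 and -0.44. Ggps1 was higher by 0.71 ± 0.25, a call lost when any 1 of 4 libraries was left out and under total counts (0.53). The calls of Msmo1 and Pmvk were lost when any 1 of 5 libraries was left out and that of Ebp without wild-type library 1.

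The number of calls with LPS moved with the fit. It was 11 in the fit of all groups, 7 with the compared groups alone and 7 without wild-type library 4. With the library pairs summed it was 2, Sqle and Lbr, and over all genes 485, against 2147 in the fit of all groups. The share of higher genes among all calls was 42.9%, and 53.2% with RLE scaling, 55.3% with the compared groups alone and 22.6% with total counts. Beside these differences, 13 of 14 proliferation markers were lower in the knockout without LPS (median -1.62) and 7 with LPS, and 7 of 9 neutrophil markers were higher without LPS and 2 with LPS. Summed neutrophil markers with LPS were 250-303 CPM in wild-type and 443-615 CPM in knockout libraries. The monocyte markers summed to 427-504 CPM in wild-type and 137-173 CPM in knockout libraries without LPS, where Ccr2 was lower by -1.73 ± 0.17 and Plac8 higher by 2.58 ± 0.50, and to 77.3-118 and 65.3-82.5 CPM with LPS. Osteoclast markers summed to 6.27-10.8 and 1.63-4.04 CPM without LPS and to 33.5-61.6 and 12-27.7 CPM with LPS, with 1 and 2 of 3 tested called lower in the knockout. Of 8 macrophage markers 1 was higher and 1 lower without LPS and 2 were higher with it. The part of these markers in the genotype differences was not tested.

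Whether the genotype difference itself changed with the medium was tested directly. Without LPS 3 genes passed, all more negative in low medium, where 4.62% of all genes passed in either direction: Stard4 (-1.41 ± 0.23, adjusted p = 8.25e-05), Hsd17b7 (-1.32 ± 0.30, adjusted p = 0.0051) and Lbr (-1.11 ± 0.26, adjusted p = 0.00706). In normal medium the same 3 differed between genotypes by 0.17, -0.02 and 0.56, none called with edgeR. None of the 3 interactions passed with the library pairs summed, where 97 of all genes passed, against 519 in the main fit. For LPS in low medium, the response of the knockout exceeded that of wild-type cells for 2 genes, Idi1 by 1.15 ± 0.30 (adjusted p = 0.00821) and Stard4 by 1.34 ± 0.24 (adjusted p = 0.00023), where 16% of all genes passed. Stard4 was the single gene called in opposite directions. It fell with LPS in wild-type cells, to 38.4, 34.3, 31.9 and 42.4 CPM (-0.90 ± 0.17). It rose in knockout cells to 40.8, 38, 55.6 and 21.8 CPM (0.45 ± 0.17), where the lowest library lay below all 4 without LPS. That rise was lost without LPS library 3 (0.21, adjusted p = 0.276), and under total counts it was a fall (-0.51). With LPS the 2 genotypes stood at 36.8 ± 4.6 and 39 ± 13.8 CPM.

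Of the 6 control genes, Srebf2 and Insig1, both of which are themselves targets of SREBP2, fell in low medium and rose there with LPS in both genotypes. Srebf2 read 13, 10.6, 14.2 and 13.8 CPM in wild-type cells in normal medium, against 8.55, 7.81, 7.15 and 8.39 CPM in low medium. With LPS it read 17.4, 16.6, 17.9 and 16.8 CPM in normal and 22.2, 21.1, 15.8 and 17.1 CPM in low medium. It thus fell in low medium (-0.69 ± 0.20, adjusted p = 0.00551) and rose there with LPS (1.26 ± 0.21, adjusted p = 4.03e-06), a rise of 0.49 that was not called under total counts (adjusted p = 0.0528). Knockout cells read 10.3, 14.6, 9.95 and 12.4 CPM in normal and 6.08, 4, 7.34 and 5.16 CPM in low medium. With LPS they read 17.7, 14.1, 21.4 and 15.8 CPM in normal and 21, 13.7, 18.4 and 17 CPM in low medium. The fall was -1.07 ± 0.20 and the rise 1.65 ± 0.21, the latter 0.69 and still called under total counts.

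Insig1 encodes a protein that holds SCAP back when sterol is plentiful and is itself degraded when sterol is low. Its libraries read 389, 202, 230 and 230 CPM in wild-type cells in normal medium, against 156, 167, 174 and 158 CPM in low medium (-0.68 ± 0.18, adjusted p = 0.00197). Library 1 in normal medium stood apart, and without it the difference was -0.40 (adjusted p = 0.0509). With LPS it read 221, 205, 266 and 274 CPM in normal and 282, 379, 320 and 403 CPM in low medium, a rise with LPS of 1.08 ± 0.18 in low medium. Knockout cells stood at 236, 252, 261 and 297 CPM in normal and 112, 127, 157 and 140 CPM in low medium (-0.96 ± 0.18). With LPS it read 217, 240, 292 and 269 CPM in normal and 217, 237, 264 and 345 CPM in low medium, a rise of 0.98 ± 0.18 in low medium. The rises fell to 0.33 and 0.05 under total counts and were not called there.

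Insig2, the second retention protein, was not called in any comparison of wild-type cells with edgeR under TMM, although total counts put it lower with LPS in both media. Their libraries read 22.1, 27.2, 25.5 and 21.7 CPM in normal and 13.4, 23.9, 13.7 and 23.2 CPM in low medium without LPS. With LPS they read 20.3, 19, 23.8 and 19.8 CPM and 26.8, 10.3, 24.2 and 15.4 CPM. The low-medium libraries split into 1 and 3 against 2 and 4 and spread widely. In knockout cells Insig2 read 37.8, 24.1, 40.1 and 20 CPM in normal and 18.5, 28.6, 17.7 and 30.6 CPM in low medium. With LPS it read 22.7, 21.8, 18.6 and 26.6 CPM and 12.7, 8, 16.9 and 11.7 CPM. It fell with LPS in low medium there (-0.95 ± 0.27, adjusted p = 0.00264), and the genotype difference in that response was not called (with total counts it was).

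Scap, the escort, read 12, 10.3, 11 and 11 CPM in wild-type cells in normal and 12.6, 7.17, 10.2 and 13.9 CPM in low medium. With LPS it read 14.7, 15.3, 11.2 and 14.6 CPM in normal and 13.6, 24.8, 13.3 and 25.2 CPM in low medium. Its only call with edgeR under TMM was the rise with LPS in low medium in wild-type cells (0.80 ± 0.26, adjusted p = 0.00764), which came to 0.05 under total counts. Total counts called it lower with LPS in low medium in knockout cells. DESeq2 called it higher in the knockout in low medium without LPS. Knockout libraries read 10.9, 10, 11.2 and 15.3 CPM in normal and 26, 12.4, 20.2 and 12 CPM in low medium. With LPS they read 15.9, 16.3, 12.8 and 13.3 CPM and 13.3, 21.3, 15.9 and 18.9 CPM. The wide values in low medium again followed the pairs of libraries.

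The proteases differed from each other. Mbtps1 was close to 35 CPM in wild-type cells without LPS (35 ± 4.46 in normal and 34.5 ± 6.72 in low medium) and fell with LPS in low medium to 19.4 ± 5.95 CPM (-0.82 ± 0.19). In knockout cells it went from 32.8 ± 2.37 to 14.5 ± 3.57 CPM (-1.16 ± 0.19). Mbtps2 was not called in any of the 18 comparisons with edgeR, at group means of 10.8 to 18 CPM, although total counts put it lower with LPS in low medium in both genotypes.

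**Figure D5:**
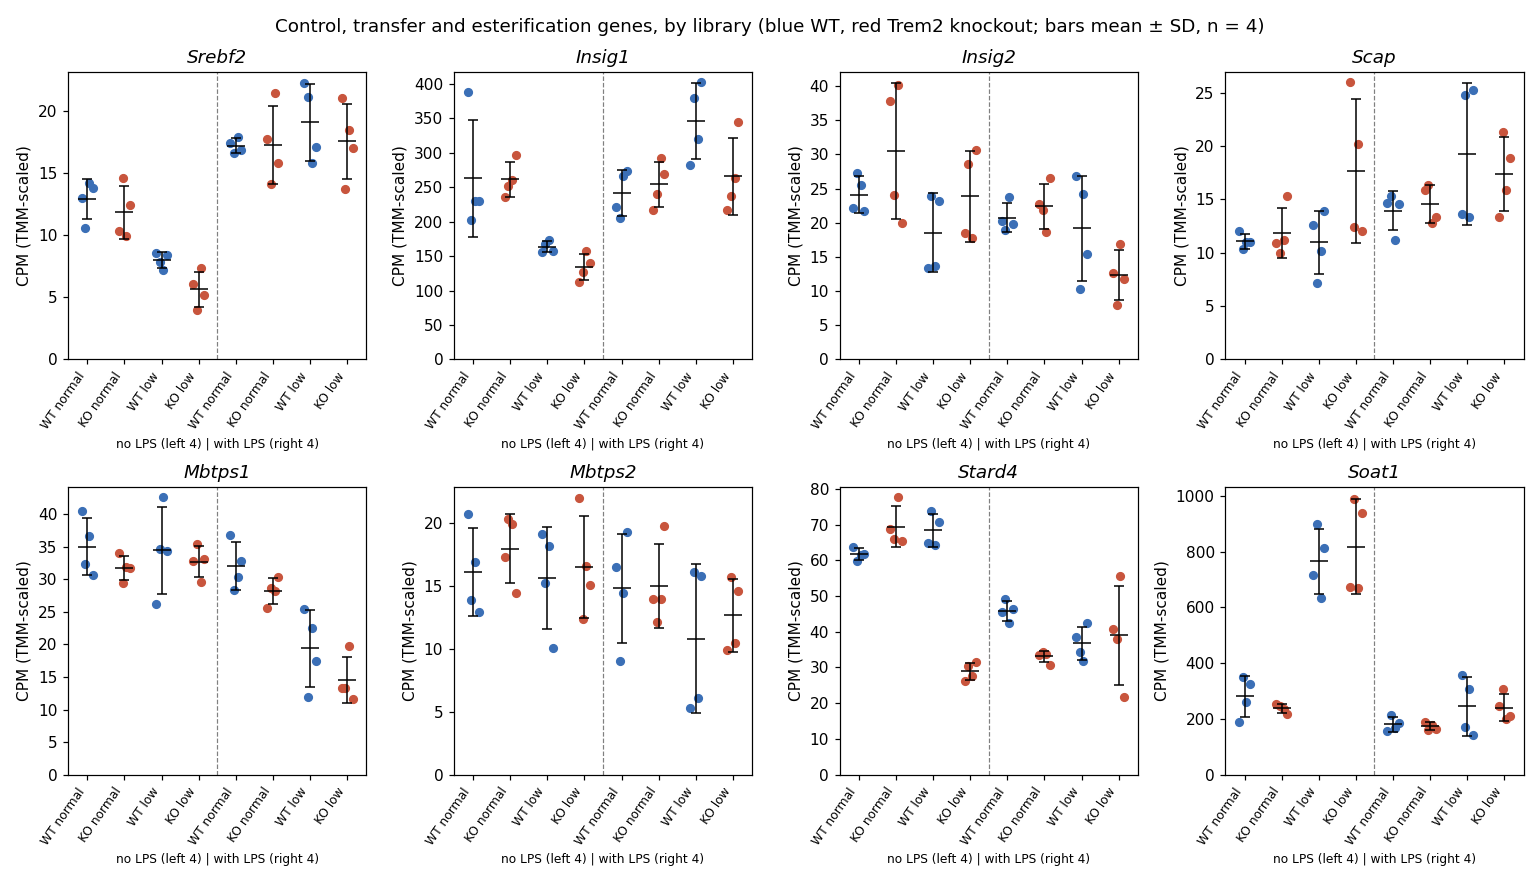
Level of control, transfer and esterification genes in each library (TMM-scaled CPM, axis from 0), with points for libraries and bars for mean ± SD of 4; groups without LPS are left of the dashed line and groups with LPS right of it. Srebf2 and Insig1 are lowest in low medium without LPS, Soat1 is highest there, and Stard4 is lower in knockout (28.9 ± 2.42) than in wild-type cells (68.4 ± 4.63) in that condition.

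Of 36 other tested genes of sterol and isoprenoid metabolism, similar numbers rose and fell in low medium without LPS. In wild-type cells 10 rose and 11 fell, where 22.4% of all genes rose and 21.9% fell. In knockout cells 9 rose and 10 fell, where 26.6% rose and 21.7% fell. The largest differences in wild-type cells were mostly those of genes that handle cholesterol after synthesis. Cyp27a1, which hydroxylates cholesterol in mitochondria, rose by 2.63 ± 0.25 (6.31 ± 1.47 to 38.9 ± 1.64 CPM). Abca1, the cholesterol exporter, rose by 2.59 ± 0.22 (55.2 ± 15.4 to 333 ± 67.2 CPM). Mylip, a ubiquitin ligase induced by LXR, rose by 2.48 ± 0.23 (50.8 ± 17.6 to 282 ± 44.8 CPM). Ch25h, which makes an oxysterol that holds SREBP2 back, fell by -2.84 ± 0.35 (25.8 ± 9.81 to 3.6 ± 2.01 CPM), and Pdss1, of ubiquinone synthesis, by -2.41 ± 0.40.

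With LPS in low medium 12 of the 36 rose and 9 fell in wild-type cells, where 27% of all genes rose and 33.6% fell. In knockout cells 12 rose and 12 fell, where 26.5% rose and 41% fell. Ch25h rose by 5.41 ± 0.38 in wild-type cells, to 153 ± 26.6 CPM. Pdss1 rose by 3.05 ± 0.42 and Gramd1a, which moves cholesterol from the plasma membrane inwards, by 2.76 ± 0.24. Rnf139, a sterol-sensing ubiquitin ligase, rose by 1.96 ± 0.19, and Cyp27a1 fell by -2.47 ± 0.28. In normal medium with LPS 11 rose and 2 fell in wild-type cells (18.3% and 17.9% of all genes). In knockout cells 10 rose and 7 fell (20.9% and 21.8% of all genes). Between genotypes in low medium, 7 were higher and 2 lower in the knockout without LPS (7.74% and 8.97% of all genes). With LPS 9 were higher and 3 lower (8.2% and 10.9% of all genes). In normal medium 2 were higher and 1 lower without LPS, where 1.86% of all genes were called in either direction. With LPS 4 were higher and 1 lower (1.98% and 2.05% of all genes). With low medium under LPS, 7 rose and 12 fell in wild-type cells (21.4% and 24.2% of all genes). In knockout cells 8 rose and 12 fell (26.5% and 32.8% of all genes).

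Reads of some members could be shared with a neighbour, since the libraries are strand-specific per the labels but the strand setting of the counting is not given in the sources used here. The 3′ end of Fdft1 overlaps Ctsb on the opposite strand by 774 bases in RefSeq, and Ctsb had group means of 3640 to 6140 CPM. Lss lies opposite 4930483K19Rik, which had 0 CPM in every group. Acat3, the near copy of Acat2, had group means of at most 0.889 CPM. Other members overlap as well. In the GENCODE annotation a protein-coding entry on the same strand, Gm43738, covers the 3′ end of Fdps (7512 bases). Entries on the opposite strand cover those of Mvd (Gm20388), Cyp51 (Akap9) and Lbr (Dnah14). In RefSeq, Yy2 overlaps Mbtps2 by 2867 bases and Vps51 overlaps Tm7sf2 by 9. Shared reads were not tested.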

How the data were processed

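Polyadenylated RNA of mouse bone marrow-derived macrophages was sequenced from its 3′ end, per the labels' protocols, with sample barcodes in the oligo-dT primer, pooling by Actb level and strand-specific libraries; no molecular identifiers are mentioned. The authors deposited 1 table of whole-number read counts per Entrez identifier. The submitters' processing notes name STAR, HTSeq, DESeq2 and the mm10 build; their versions, the gene annotation and the strand setting are not given in the sources used here. Of 24885 identifiers 23969 were named (96.3%, holding 99.5% of counts).

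Counts were filtered with filterByExpr (11244 genes), scaled by TMM and fitted in R 4.3.3 with edgeR 4.0.16 (quasi-likelihood F test, 1 mean for each of 8 groups, all 32 libraries). There were 18 contrasts, 12 between groups and 6 interactions, and calls had an adjusted p under 0.05 (Benjamini-Hochberg over all genes tested). The SE is the absolute log2 difference divided by the square root of F. Depth was 3068863 to 15585423 counts per library, and floors are 3 counts, covering counting error only. PCR copies were counted as reads.

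Alternatives were RLE size factors, DESeq2 1.42.0, no filter, a filter of 5 CPM in 4 libraries, the compared groups alone, a replicate block, libraries 1 and 3 and libraries 2 and 4 summed, each library left out, and library sizes from total counts, which was chosen after seeing the data. Promoter windows are RefSeq's on GRCm38.p6. The members and lists were chosen with earlier results of these data known. Values by library are given for genes called and among the 4 largest differences of a comparison, with a mean of at least 5 CPM, and for Srebf2, Insig1, Insig2 and Scap; of other pathway genes at most 5 are named for the medium and 5 for LPS, those with the largest wild-type differences.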

Additional observations from a re-analysis of the deposited data

Results flagged for a closer look

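In 8 of 224 gene-by-group sets of 4 libraries, 1 library lay far from the other 3; chance gives about 1 in 20 such sets. Without LPS these were Pmvk in wild-type normal-medium library 2 (14.2 CPM) and knockout normal-medium library 4 (16.3 CPM), Cyp51 in wild-type normal-medium library 1 (53.9 CPM), Insig1 in the same library (389 CPM) and Sc5d in wild-type low-medium library 2 (77.1 CPM). With LPS they were Sqle and Sc5d in knockout low-medium library 4 (16.5 and 77.7 CPM) and Scap in wild-type normal-medium library 3 (11.2 CPM).

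By the interaction tests, effects differed between conditions in 33 cases. The genotype difference changed with the medium without LPS for Hsd17b7 (-1.32), Stard4 (-1.41) and Lbr (-1.11), and with LPS for Fdps (-1.12). The LPS response in low medium differed between genotypes for Idi1 (1.15) and Stard4 (1.34).

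The LPS response of wild-type cells differed between media, upward in low medium, for Hmgcs1 (1.41), Idi1 (1.86), Fdft1 (1.16), Sqle (1.61), Cyp51 (1.28), Msmo1 (1.02), Hsd17b7 (0.85), Sc5d (0.85), Insig1 (1.20) and Srebf2 (0.84). It differed downward for Mvk (-1.16), Dhcr7 (-1.44) and Soat1 (-1.0). Of all genes, 10.7% differed upward and 12.8% downward in wild-type cells. In knockout cells it differed upward for Hmgcs1 (2.26), Idi1 (2.69), Sqle (1.55), Cyp51 (1.78), Msmo1 (1.08), Hsd17b7 (2.31), Sc5d (1.12), Insig1 (1.02), Srebf2 (1.09) and Stard4 (1.52). It differed downward for Mvk (-1.59), Lss (-1.73), Soat1 (-1.30) and Mbtps1 (-0.98). Of all genes, 13.3% differed upward and 22% downward in knockout cells.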

How the results depend on the processing

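Of 187 calls on the 28 genes, 181 were kept with RLE size factors, 185 with DESeq2, 175 with no filter, 185 with the stricter filter, 176 with the compared groups alone, 112 with the library pairs summed and 156 with total counts. The replicate numbers did not pair the libraries: libraries with the same number had correlations of deviations between -0.377 and 0.353 (median 0.0023), and 12 of 32 correlated best with their own number. With the replicate block 185 calls were kept, 10 instead of 11 for genotype in low medium with LPS (Msmo1 -0.44, adjusted p = 0.0527) and 14 instead of 15 for the medium in wild-type cells with LPS (Mvd -0.82, adjusted p = 0.0594). In the following, counts are of genes called among the 28, and the cause of each change was not tested.

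DESeq2 gave 2 for genotype in normal medium without LPS, 13 for genotype in low medium without LPS, 2 for genotype by medium with LPS and 2 for genotype by LPS in normal medium. The compared groups alone gave 4 for genotype in normal medium with LPS, 7 in low medium with LPS and 1 for genotype by LPS in normal medium. The summed pairs, which leave n = 2, gave 0 and 3 for genotype in normal medium with LPS and low medium without it, 2 in low medium with LPS, 9 for the medium in wild-type cells without LPS, and 2 and 3 for LPS in normal medium in wild-type and knockout cells. They gave 0 for genotype by medium without LPS and with LPS, 0 for genotype by LPS in low medium, and 3 and 8 for medium by LPS in wild-type and knockout cells. Over all genes, calls for genotype by medium went from 519 to 97 without LPS and from 617 to 1 with it. Those for genotype by LPS in low medium went from 1800 to 91, and those for medium by LPS from 2649 to 853 and from 3971 to 1702. Total counts gave 15 and 19 for LPS in normal medium, 2 for genotype by medium with LPS, and 1 and 4 for genotype by LPS in normal and low medium.

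Of 504 values, total counts turned the sign of 16 that were called under either scaling, given here, and of 45 called under neither. For the medium in knockout cells with LPS these were Cyp51 (-0.03), Msmo1 (-0.44), Insig1 (-0.48) and Srebf2 (-0.54). For LPS in low medium in wild-type cells they were Pmvk (-0.19), Fdps (-0.06), Msmo1 (-0.15), Ebp (-0.58) and Insig2 (-0.71), and in knockout cells Pmvk (-0.77), Fdps (-0.51), Ggps1 (-0.24), Sqle (0), Msmo1 (-0.01), Sc5d (-0.34) and Stard4 (-0.51).

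Leaving out each library in turn kept 1607 of 1760 calls, and 40 results lost theirs at least once. Counts ran from 1 to 2 for genotype in normal medium with LPS, 7 to 11 in low medium with LPS, 5 to 10 for LPS in normal medium in knockout cells (5 without LPS library 3), 0 to 2 for genotype by medium with LPS and 2 to 5 for genotype by LPS in low medium (5 without knockout LPS library 3). Genes under a few CPM, such as Mvk, Lss, Dhcr7 and Mvd with LPS in low medium, rest on few reads in the shallower libraries.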
